A study of Mus musculus with 8 samples.

Results

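The iron and copper handling genes examined here are 10 genes chosen by name: Tfrc, Trf, Slc11a2, Slc40a1, Fth1, Ftl1, Heph, Cp, Atp7a and Atp7b. Each was found through the RefSeq accession that the array design gives for its probe, and together they are 10 of the 18749 genes with a matched probe. All 10 passed the filter on dim probes and so are among the 14137 genes tested. They were read in mammary gland RNA of female C57/Bl6 mice at lactation day 1, of which 4 were wild-type (WT) and 4 lacked Th-POK (knockout, KO), on 1 one-colour Agilent array per mouse. Th-POK is the zinc finger transcription factor encoded by Zbtb7b. Neither the labels nor the methods name a tissue restriction of the knockout, so its effects on T cells and other tissues of the KO dams cannot be told apart from those in the gland. The comparison asks which of these genes differ between KO and WT glands on the first day of milk secretion.

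The lactating gland takes iron and copper from the blood and passes part of both into milk. Iron travels in plasma bound to transferrin (Trf), enters cells with the transferrin receptor (Tfrc), leaves the endosome through the transporter DMT1 (Slc11a2), is stored in ferritin (Fth1 and Ftl1) and leaves the cell through ferroportin (Slc40a1), while the copper oxidases hephaestin (Heph) and ceruloplasmin (Cp) oxidise the iron that leaves. Copper is moved into the secretory pathway, or out of the cell, by the ATPases Atp7a and Atp7b, and it is loaded there onto enzymes such as ceruloplasmin. Several of these transcripts carry iron-responsive elements, RNA hairpins bound by the iron regulatory proteins: binding keeps Tfrc RNA from decay and holds back translation of ferritin and ferroportin.

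Signals are given as log2 quantile-normalized values, and a difference is KO minus WT on that scale, so a difference of 1 is a doubling. The Zbtb7b probe lay between 9.90 and 10.42 on the WT arrays and was well above background on 0 of 4 KO arrays, which made it at least 81.5-fold lower there. Between 66.8% and 75.3% of the probes of an array were well above background and 0 spots were saturated. The 2 genotypes were hybridised on separate slides, so slide and genotype cannot be told apart in any result below. The luminal markers Csn2, Wap and Krt8 were well above background on every array, as the tissue label would have it. In whole-gland RNA, fewer cells of a type and less RNA per cell cannot be told apart.

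Among the 10 genes, Slc40a1, Heph and Atp7a were higher in KO glands and Slc11a2 was lower, by limma with Benjamini-Hochberg adjustment over all genes tested at an adjusted p under 0.05. That is 3 genes higher, against 7.53% of all genes tested, and 1 gene lower, against 8.96%. Either direction held for 4 of 10 members and for 16.5% of all genes. The members were chosen with earlier results of these data known, so setting these shares side by side is a description and not a test. The arrays of the genotypes did not overlap for those same 4 members, and for 24.1% of all genes tested. The median difference of the 10 members was 0.26, and that of all genes tested was -0.02. When the replicate number of the labels was included as a block, 4 members were higher and 2 lower, with Cp and Tfrc added, and 19.5% of all genes were called. The numbers 1 and 3 resembled each other across genotypes, as did 2 and 4, so it is not shown that a single number marks a pair of mice. A pair below means the 2 arrays that share a number, and the block calls rest on that grouping.

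**Figure D1:**
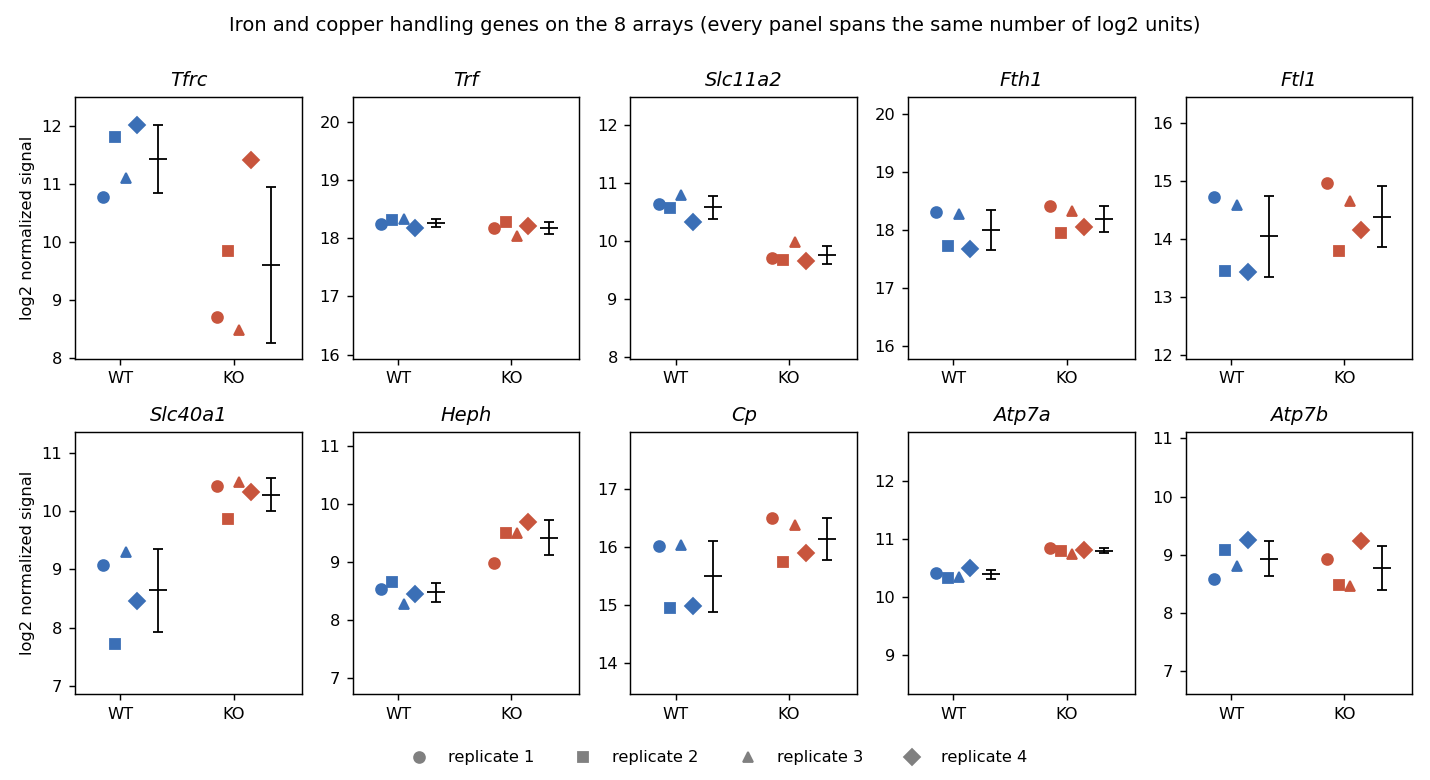
Log2 normalized signal (y axis) of the 10 genes on the 4 WT and 4 KO arrays; each point is 1 array, its shape gives the replicate number, and the bar and whiskers give the mean and SD of a genotype. The KO arrays lie above the WT arrays for Slc40a1, Heph and Atp7a and below them for Slc11a2, while Tfrc on KO 4, at 11.41, lies among the WT arrays.

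**Figure D2:**
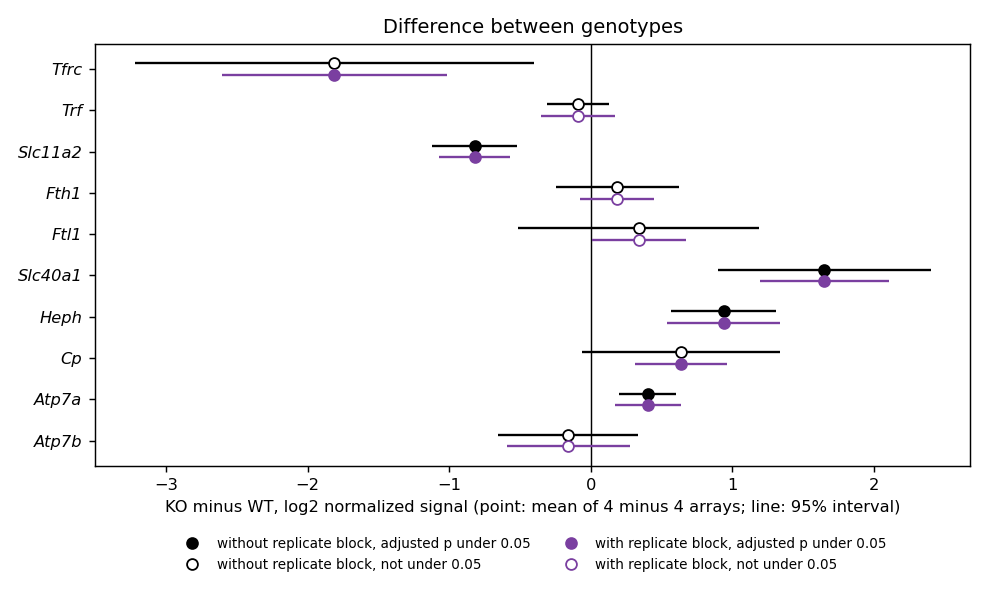
Difference between genotypes (KO minus WT, log2 normalized signal, x axis) of the 10 genes with its 95% interval, without (black) and with (purple) the replicate number as a block; filled points had an adjusted p under 0.05. The estimates coincide, and the interval of Tfrc narrows from between -3.22 and -0.40 to between -2.60 and -1.02 with the block.

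Among the genes of iron entry, the transcript of the iron transporter Slc11a2 was lower in KO glands. Its signal was 10.63, 10.57, 10.80 and 10.32 on WT arrays 1 to 4 and 9.70, 9.68, 9.99 and 9.67 on KO arrays 1 to 4. Every KO array lay below every WT array. The difference was -0.82 (SE 0.13, n = 4 and 4), which is 56.6% of the WT level, with an adjusted p of 0.0114 by limma. It was called in 16 of 16 alternative settings. Another 2 probes to Slc11a2 were read. Probe A_52_P254298 gave a difference of -0.91, with an adjusted p of 0.00795 over all named probes by limma, and its genotypes did not overlap. Probe A_52_P196476, designed to a different RefSeq transcript of the gene, gave -0.66 and an adjusted p of 0.0835 by limma. On that probe KO 4, at 8.72, lay within the WT range of 8.62 to 9.37.

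The receptor Tfrc had the largest difference in size among the 10 genes but also the largest spread. Its signal was 10.78, 11.80, 11.09 and 12.01 on WT arrays 1 to 4 and 8.71, 9.84, 8.48 and 11.41 on KO arrays 1 to 4. KO arrays 1, 2 and 3 lay below every WT array, and KO 4 lay within the WT range. The KO mean was 9.61 ± 1.34 (SD, n = 4) against 11.42 ± 0.58 in WT, a difference of -1.81 (SE 0.62), or 28.5% of the WT level. The adjusted p was 0.0744 by limma, so the difference was not called. With the replicate block the SE was 0.32 and the adjusted p 0.0227, and the KO array was the lower one in 4 of 4 pairs, with pair differences of -2.07, -1.96, -2.61 and -0.60. With 1 array left out the difference ranged from -1.43 without KO 3 (adjusted p 0.174, limma) to -2.41 without KO 4 (adjusted p 0.0173), and the latter was the 1 of 8 such fits that called it. The Tfrc probe is printed 10 times on the array, and the SD over its spots, which covers printing and reading only, was between 0.044 and 0.079 on the 8 arrays.

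Transferrin itself, the plasma carrier that mammary epithelium also secretes into milk, lay between 18.17 and 18.33 in WT and between 18.03 and 18.28 in KO. The genotypes overlapped, and the difference was -0.09 with a 95% interval of -0.31 to 0.13 (adjusted p 0.527, limma). On each array the Trf probe ranked between 9 and 18 in brightness among 41174 probes. Quantile normalization ties these top positions to shared values, and with each array scaled by its 75th percentile instead the difference was -0.26 (adjusted p 0.184).

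On the side of iron release, the exporter Slc40a1 was higher in KO glands. Its signal was 9.08, 7.72, 9.30 and 8.45 on WT arrays 1 to 4 and 10.44, 9.87, 10.50 and 10.33 on KO arrays 1 to 4. Every KO array lay above every WT array, and the WT arrays spread more (SD 0.71) than the KO arrays (SD 0.28). The difference was 1.65 (SE 0.33), a 3.13-fold higher level with a 95% interval of 1.86-fold to 5.28-fold and an adjusted p of 0.0191 by limma. The call was lost without KO 1 (adjusted p 0.0533), without KO 3 (0.0578) and by the methods' t-test, run on the same values with the same adjustment (0.0502). Macrophages carry much ferroportin, and 0 of 6 macrophage markers tested were called, with their mean log2 signal between 10.30 and 10.68 in WT and between 10.16 and 10.76 in KO. Their differences ranged from -0.15 for Adgre1 to 0.35 for Cd163. The part of macrophage RNA in the Slc40a1 difference was not tested.

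Heph, the membrane-bound copper oxidase that works beside ferroportin, was also higher in KO glands. The WT arrays read 8.53, 8.67, 8.28 and 8.46, and the KO arrays 8.99, 9.50, 9.50 and 9.69. The genotypes did not overlap, and KO 1 was the lowest of the KO arrays. The difference was 0.94 (SE 0.16), a 1.92-fold higher level with an adjusted p of 0.0140 by limma, and it was called in 16 of 16 alternative settings. The second Heph probe, A_52_P498219, was not well above background on any array and was not tested. The secreted relative of Heph, Cp, is made by lactating epithelium as well as by liver. It read 16.02, 14.96, 16.03 and 14.98 in WT and 16.49, 15.75, 16.38 and 15.90 in KO. The KO arrays overlapped the WT arrays, since KO 2 and KO 4 lay below WT 1 and WT 3. The difference was 0.64 (SE 0.31) with an adjusted p of 0.169 by limma. With the replicate block the SE was 0.13 and the adjusted p 0.0305, and KO was the higher one in 4 of 4 pairs, by 0.48, 0.79, 0.36 and 0.92. Of the hepatocyte markers, Alb was well above background on all 8 arrays, Apoa2 on 4 WT and 2 KO arrays, and Hamp and Ttr on none, and 0 of the 2 tested were called (Alb -0.27, adjusted p 0.504, and Apoa2 -0.28, adjusted p 0.511, limma). The part of hepatocyte RNA in the Cp difference was not tested.

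The ferritin chains, heavy (Fth1) and light (Ftl1), were not called. Fth1 read 18.31, 17.72, 18.28 and 17.67 in WT and 18.41, 17.94, 18.33 and 18.04 in KO, a difference of 0.19 with a 95% interval of -0.25 to 0.62 (adjusted p 0.512, limma). Ftl1 read 14.72, 13.45, 14.58 and 13.44 in WT and 14.96, 13.79, 14.65 and 14.15 in KO, a difference of 0.34 with a 95% interval of -0.51 to 1.19 (adjusted p 0.544, limma). The KO array was the higher one in 4 of 4 pairs for both chains. With the block the adjusted p was 0.239 for Fth1 and 0.121 for Ftl1.

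Fth1, Ftl1 and Cp varied together from mouse to mouse. In both genotypes the arrays of replicates 1 and 3 were the higher ones and those of replicates 2 and 4 the lower ones for all 3 genes. After the genotype means were subtracted, Pearson's r over the 8 arrays was 0.996 between Fth1 and Cp, 0.993 between Fth1 and Ftl1, 0.987 between Ftl1 and Cp, and 0.881 between Slc40a1 and Cp. Tfrc went the other way, with the arrays of replicates 2 and 4 the higher ones in both genotypes and an r of -0.70 with Fth1. These values are a description over 8 arrays that share the replicate numbers and 2 slides, and what sets the numbers apart is not given in the labels.

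**Figure D3:**
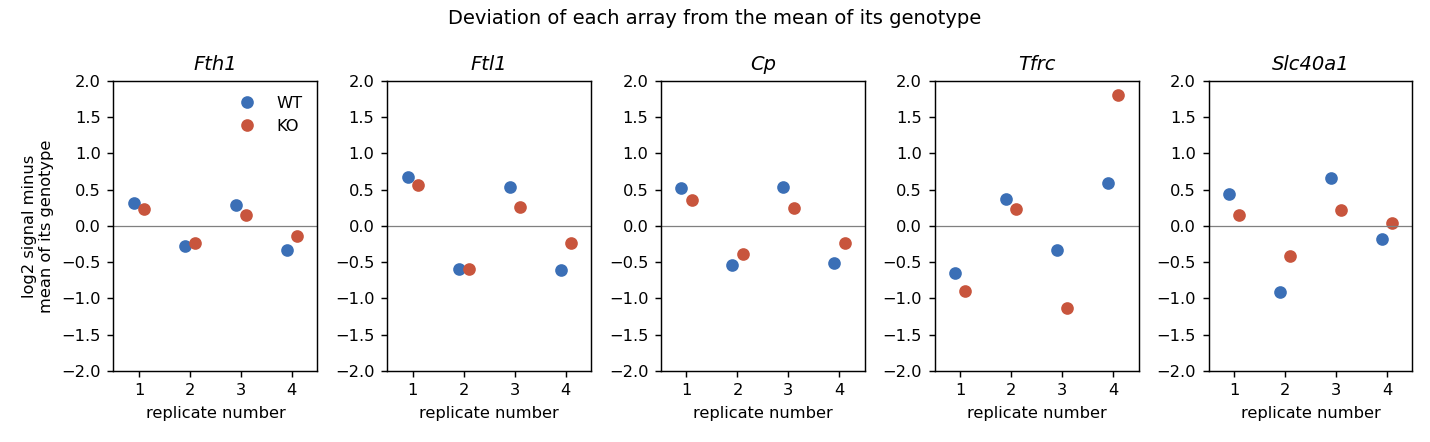
Log2 signal minus the mean of its genotype (y axis) for Fth1, Ftl1, Cp, Tfrc and Slc40a1, by replicate number (x axis), with each point 1 array (blue WT, red KO). Replicates 1 and 3 lie above 0 and replicates 2 and 4 below it in both genotypes for Fth1, Ftl1 and Cp, and the reverse holds for Tfrc.

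Of the copper ATPases, Atp7a was slightly higher in KO glands and Atp7b was not called. Atp7a read 10.41, 10.32, 10.35 and 10.50 in WT and 10.85, 10.79, 10.74 and 10.81 in KO. The genotypes did not overlap, and the spread within each was small (SD 0.079 in WT and 0.047 in KO). The difference was 0.40 (SE 0.088), a 1.32-fold higher level with an adjusted p of 0.0235 by limma. The call was lost when any of WT 2, WT 3, KO 1, KO 2 or KO 3 was left out, with adjusted p between 0.0575 and 0.0628. Atp7b read between 8.58 and 9.26 in WT and between 8.46 and 9.24 in KO, a difference of -0.16 with a 95% interval of -0.65 to 0.33 (adjusted p 0.628, limma).

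RefSeq start sites (build GRCm38.p6) were at hand for 6 of the 10 genes, in 9 windows of 250 bases before the start. They were searched on both strands for the metal response core (TGCGCNC or TGCACNC), the hypoxia response core (ACGTG) and the antioxidant response core (TGACNNNGC), which 21.4%, 16.6% and 10.2% of all 32851 such windows hold. The stretches of Atp7a, which was called, and of Tfrc, which had the largest difference, are shown because they are the member windows with more than 1 match, with the metal and hypoxia cores in capitals; overlapping matches run together. The Atp7a stretch lies on the plus strand at chrX:106027077-106027162 and the Tfrc stretch on the plus strand at chr16:32608828-32608867.

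Atp7a: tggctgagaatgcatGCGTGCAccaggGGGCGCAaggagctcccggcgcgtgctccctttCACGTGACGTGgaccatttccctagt
Tfrc: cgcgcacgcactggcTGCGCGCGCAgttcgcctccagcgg

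In the Atp7a stretch 2 matches are to the metal core and 3 to the hypoxia core, and the Tfrc stretch holds 2 overlapping matches to the metal core. A further 1 match to the metal core lies before Atp7b, and 1 to the hypoxia core before the more downstream Tfrc start. The windows of Fth1, Ftl1 and Cp held 0 matches to any of the 3 cores. A match is a description of letters, and no factor was measured at these places.

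Around the 10 genes, 7 lists of iron and copper genes were read, of which 119 of 128 genes were tested. Together 8 were higher and 10 lower, which is 15.1% called against 16.5% of all genes. Without the 10 members, 5 of 109 were higher and 9 lower (12.8%), and the median difference was -0.04. As a whole the lists were thus called about as often as other genes. With the block 11 were higher and 14 lower. For the counts of single lists below, taken without the block, the shares over all genes tested were 7.53% higher and 8.96% lower.

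In iron entry and recycling, 2 of 23 genes were higher and 2 lower. Lactoferrin (Ltf), an iron-binding milk protein that neutrophil granules also carry, read 16.39, 16.00, 16.56 and 16.14 in WT and 17.94, 17.51, 17.30 and 17.58 in KO. The genotypes did not overlap, the difference was 1.31 (SE 0.17), and the adjusted p was 0.00660 by limma, called in 16 of 16 alternative settings. Of the 5 neutrophil markers tested 2 were higher, the granule genes Camp and Ngp. Both passed the filter through the KO arrays alone and were not well above background on any WT array. The other 3 were read in both genotypes and were not called. They differed by 2.19 for S100a9 (adjusted p 0.0566), 0.49 for S100a8 (0.357) and 0.24 for Mpo (0.524, limma). For S100a9 every KO array lay above every WT array. The mean log2 signal of the 5 markers, which includes Camp and Ngp at background in WT, lay between 5.93 and 6.72 in WT. In KO it lay between 8.23 and 9.38. The part of neutrophil RNA in the Ltf difference was not tested. Scara5, a ferritin receptor, was higher by 0.86 (adjusted p 0.0275). Hmox1, the oxygenase that frees iron from haem, was lower by 0.89 (adjusted p 0.0367, limma), with overlapping genotypes, its KO 4 at 11.12 lying above its WT 3 at 10.99. Each of these limma calls on Scara5 and Hmox1 was lost without WT 2, KO 1, KO 2 or KO 3, and that on Scara5 without WT 3 and that on Hmox1 without WT 1 or WT 4 as well, with adjusted p up to 0.0755 and 0.0982 over all alternatives. Both were also lost by the methods' t-test, and Hmox1 with no filter on dim probes.

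In iron storage and export, 2 of 12 genes were higher, Slc40a1 and Heph, and 0 lower at this threshold. Ncoa4, which carries ferritin to the lysosome, differed by -0.01 (adjusted p 0.971). In iron sensing and hepcidin control, 3 of 18 genes were higher and 0 lower. These were Smad4 (0.64, adjusted p 0.0224) and Smad1 (0.55, adjusted p 0.0290), which carry signals of bone morphogenetic proteins in general and to hepcidin in liver, and Fbxl5 (0.67, adjusted p 0.0341), the iron-sensing subunit of the ligase that removes iron regulatory protein 2, all by limma. Hepcidin (Hamp) itself was not well above background on any array. The RNAs of both iron regulatory proteins were not called: Aco1 differed by -0.04 (adjusted p 0.875) and Ireb2 by 0.08 (adjusted p 0.698). Smad4, Smad1 and Fbxl5 each lost the call without WT 2, WT 3, KO 2 or KO 3, and Smad1 and Fbxl5 also without WT 4 or KO 1, with adjusted p up to 0.0671, 0.0812 and 0.0947 over all alternatives. Fbxl5 also lost it by the methods' t-test and with no filter on dim probes.

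Beside 7.53% higher and 8.96% lower over all genes tested, 0 of 12 genes of haem synthesis were higher and 4 lower. Among them were Slc25a38, the mitochondrial glycine carrier (-0.68, adjusted p 0.0259), and the enzymes Uros (-0.64, adjusted p 0.0260) and Cpox (-0.54, adjusted p 0.0310), by limma. The median difference of the list was -0.16. These 3 calls were lost when any of WT 2, WT 3, KO 1 or KO 3 was left out, with adjusted p over all alternatives reaching 0.0711 for Slc25a38, 0.0754 for Uros and 0.0877 for Cpox. Those on Uros and Cpox were also lost without WT 4, and those on Slc25a38 and Cpox without KO 2 and by the methods' t-test. Of the 4 erythroid markers tested 1, the globin gene Hba-a1, was higher (1.16, adjusted p 0.0474, limma). The mean log2 signal of these markers lay between 10.58 and 11.89 in WT and between 11.87 and 13.18 in KO. For Hba-a1 the genotypes overlapped, with WT 4 at 14.58 above KO 3 at 14.50, and its call was lost with the block (adjusted p 0.0553, limma). The other 3 were read on all 8 arrays and were not called, with differences of 1.09 for the globin gene Hbb-bt (adjusted p 0.0511), 0.84 for Alas2 (adjusted p 0.145) and 1.18 for Slc4a1 (adjusted p 0.107, limma), and for Slc4a1 every KO array lay above every WT array. The red cell membrane gene Epb42 did not pass the filter in either genotype. The part of red cell RNA in the differences of the haem genes was not tested.

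In mitochondrial iron and iron-sulphur cluster assembly, 0 of 26 genes were higher and 2 lower. Nubp2, a cytosolic scaffold for such clusters, was lower by 0.72 (adjusted p 0.0150, limma), called in 16 of 16 alternative settings, with signals between 10.87 and 11.30 in WT and between 10.18 and 10.54 in KO. Gfer, an oxidase of the mitochondrial intermembrane space, was lower by 0.62 (adjusted p 0.0225), a call lost without WT 2, KO 1, KO 2 or KO 3 (up to 0.0692, limma).

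In copper uptake and delivery, Atp7a was the 1 gene higher of 18 tested. Mt3, a metallothionein, was the 1 gene lower, by 0.55 (adjusted p 0.0375, limma), a call lost with the block (0.0536). It was also lost without WT 2, WT 3, WT 4, KO 1, KO 2 or KO 3, by the methods' t-test and with no filter on dim probes, with adjusted p up to 0.101. The copper importer Slc31a1 was not called (-0.19, adjusted p 0.401). The metal-binding metallothioneins Mt1 and Mt2 differed most between mice. Mt2 read 16.78, 12.98, 14.46 and 12.19 in WT and 17.49, 16.47, 17.72 and 13.89 in KO, a difference of 2.29 (SE 1.12, adjusted p 0.176, limma). Mt1 differed by 1.05 (SE 0.78, adjusted p 0.362, limma), between 14.13 and 16.67 in WT and between 14.25 and 17.44 in KO. As for ferritin, the arrays of replicates 1 and 3 were the higher ones in both genotypes for Mt1 and Mt2. With the block the adjusted p of Mt2 was 0.0320 and that of Mt1 0.0835. Among the copper enzymes, Heph was higher and tyrosinase (Tyr), the enzyme of melanin synthesis, lower, out of 12 tested. Tyr differed by -1.40 (adjusted p 0.0175, limma), between 5.31 and 6.25 in WT and between 3.98 and 4.81 in KO, a call lost without KO 3 (0.0542). Its mean signal lay at percentile 6.82 of the genes tested, so the size of its difference is limited by background.

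**Figure D4:**
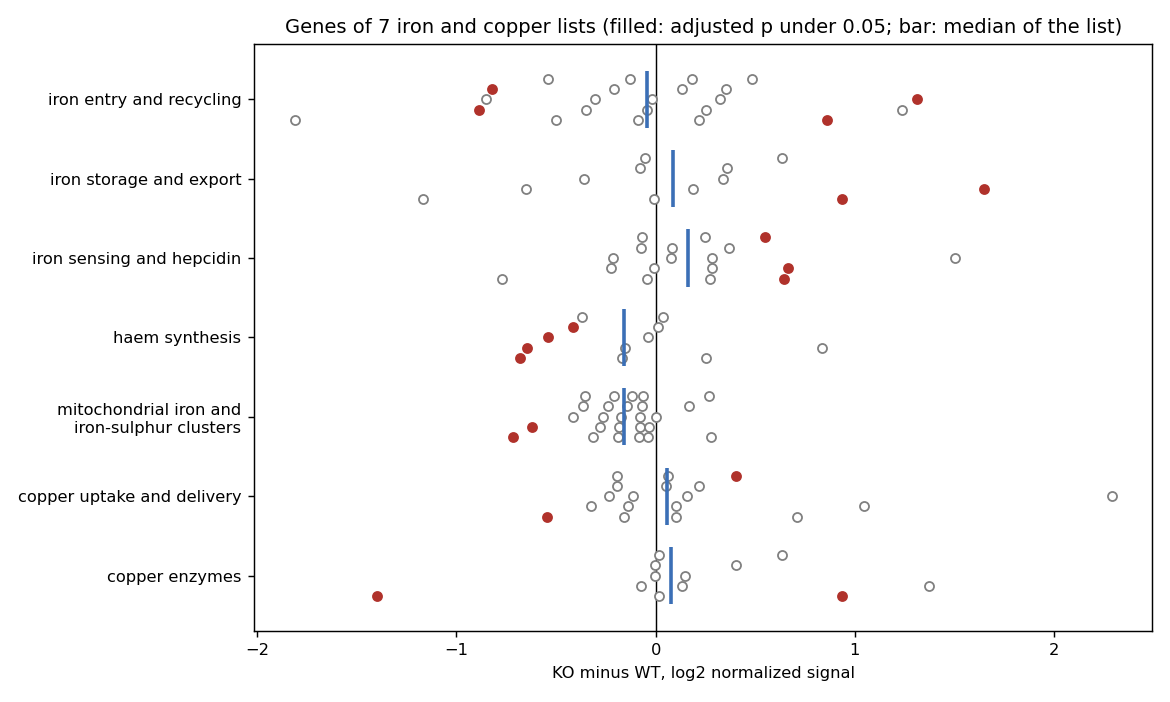
Difference between genotypes (KO minus WT, log2 normalized signal, x axis) of each gene tested in 7 iron and copper lists (rows; the height of a point within a row carries no value), filled where the adjusted p was under 0.05, with a blue bar at the median of the list. In haem synthesis the 4 filled points lie below 0, and in iron sensing and hepcidin the 3 filled points lie above 0. In the mitochondrial list the 2 filled points lie below 0, and in iron storage and export the 2 lie above it. Every other list holds filled points on both sides.

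The genes whose deviation from the genotype means was most like that of a called member over the 8 arrays were Dcaf13 (r 0.983) and Lgr6 (0.982) for Slc11a2, Cnot11 (0.988) and Nfib (0.982) for Slc40a1, Ubp1 (0.973) and Abce1 (0.966) for Heph, and Slc35d2 (0.962) and Fchsd1 (0.961) for Atp7a. These are the top 2 of 14137 genes for each, over 8 arrays. Of them, Abce1 (difference -0.71, adjusted p 0.0194) and Fchsd1 (0.64, adjusted p 0.0122) were themselves called by limma.

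Marker lists of the cell types in the gland are given beside these results. Of 7 luminal markers 2, Krt18 (0.67) and Epcam (0.52), were higher. The other 5 were not called and went both ways: Krt8 0.46, Wap 0.07, Csn2 0.01, Elf5 -0.35 and Lalba -0.45. With the block 1 luminal marker was higher, Krt18, and 1 lower, Lalba (adjusted p 0.0444, limma), and the call on Epcam was lost (0.0598). The mean log2 signal of the 7 lay between 15.94 and 16.09 in WT and between 16.06 and 16.21 in KO. Of 5 fibroblast markers 1, Dcn, was higher, and the mean was between 13.46 and 13.65 in WT and between 13.69 and 14.30 in KO. Of 6 adipocyte markers 1 was higher, and 0 of 6 basal and 0 of 5 endothelial markers were called. Of 4 T cell markers tested 2, Cd3e and Cd4, were lower, and of 4 B cell markers 1, Cd79b, was higher. The part of cell composition in the differences of the 10 genes was not tested.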

How the data were processed

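RNA of No. 4 mammary glands was read on 8 one-colour Agilent arrays, 4 WT and 4 KO. The scanner intensities deposited by the authors came from Agilent Feature Extraction 10.7, per the labels. The log2 table the authors deposited was quantile-normalized in GeneSpring and was used as an alternative. Here log2 processed intensities of non-control spots were quantile-normalized, flagged spots left out and the spots of a probe averaged (41174 probes). A probe entered if every array of 1 genotype or the other read it well above background. The brightest probe of each gene was tested with limma 3.58.1 in R 4.3.3, with Benjamini-Hochberg adjustment over 14137 genes. The fit was first run on simulated data with noise independent between arrays, so those runs do not cover the shared deviation of replicate numbers. Symbols came from probe accessions through RefSeq (26728 of 27094 NM accessions matched).

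The members and lists were chosen with earlier results of these data known. Named were the members, up to 4 called genes per list by smallest p, 7 further iron and copper genes, and the 2 genes most like each called member. Values of some genes under this rule are not reported here. Arrays with the same replicate number deviated together (r 0.219, 0.165, 0.304 and 0.283). Arrays with other numbers had a mean r of -0.08 and ranged from -0.32 to 0.34. Numbers 1 and 3 also deviated together across genotypes (WT 1 with KO 3 0.341, WT 3 with KO 1 0.264), as did 2 and 4 (WT 2 with KO 4 0.240, WT 4 with KO 2 0.114). WT 1 thus deviated more like KO 3 than like KO 1. The numbers were used as a block in an alternative fit only, and do not establish which mice, if any, were paired. Alternatives covered scaling, background (normexp with offset 50, on the median signal), the deposited table, the filter, probe choice, unmatched probes, the block, the methods' t-test and leaving out each array. The number of arrays limits the precision.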

Additional observations from a re-analysis of the deposited data

Results flagged for a closer look

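In groups of 4 arrays, the gap of the outermost array to its neighbour was set against the range of the group. For the 10 members and the named pathway genes 60 groups were looked at in this way, and 3 had an array set apart, where chance flags about 1 in 20. Slc11a2 read 9.989 on KO 3, above the other KO arrays at 9.666 to 9.702 and still below the WT mean of 10.58. Ireb2 read 11.33 on WT 3, below the other WT arrays at 11.67 to 11.74. Ncoa4 read 11.55 on WT 3, above the other WT arrays at 11.37 to 11.38.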

How the results depend on the processing

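No difference of the 10 members turned its direction in any of the 16 alternatives. The number of members called was 4, except 6 with the replicate block, 3 by the methods' t-test, and 2 to 5 with 1 array left out. Genes called numbered 2331, against 1389 by the methods' t-test, 2762 with the replicate block, and 515 to 3070 with 1 array left out. The pathway list genes called numbered 18, and between 4 and 20 with 1 array left out. The fewest genes were called without KO 3 (515), and without WT 2, WT 3, KO 1 and KO 2 there were 767, 983, 756 and 946. Tfrc and Cp passed the threshold with the block, and Tfrc also without KO 4. The block changed no other call among the members. The cause of these changes was not tested. Differences near the top of the scale (Trf, Fth1) are limited by the normalization, and those of dim probes by background.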
